A study of Homo sapiens with 6 samples.

Results

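The integrated stress response is the programme by which cells answer amino acid shortage, misfolded protein in the endoplasmic reticulum, heme deficiency or viral RNA. Kinases that sense these conditions phosphorylate the translation factor eIF2alpha, which lowers general protein synthesis and favours translation of the transcription factor ATF4. ATF4 then induces genes for amino acid synthesis and uptake, redox balance and, through DDIT3 (CHOP), cell death. ATF4 is controlled mainly at translation, so the level of its own mRNA need not follow that of its protein, and proteins were not measured here. The genes described are ATF4 and 9 of its known targets, DDIT3, ATF3, TRIB3, CHAC1, ASNS, SESN2, PSAT1, PHGDH and SLC7A11. They were chosen by symbol, with earlier results of these data known, and are 10 of the 52088 entries of the gene count table. All 10 were found and all 10 passed the filter on low counts, which kept 20746 genes.

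Bulk RNA-seq was performed on K562, a human erythroleukaemia cell line that grows in suspension. The libraries were 2 of PAX6_Ta KO, 2 of PBX3_Cl KO and 2 of Control cells, and each knockout lacks 1 ultraconserved element (UCE), a non-coding stretch conserved between distant vertebrates. To make the knockouts, a plasmid with Cas9 and a pair of guide RNAs was transfected, puromycin was applied, and single clones were picked and checked by PCR and Sanger sequencing, so each knockout line is a clone. The Control libraries carry the genotype WT and are not described as edited with control guides, so in every comparison with Control the loss of an element cannot be told apart from transfection, selection and cloning. No treatment other than this was given, and the loss of the elements was not checked from these counts.

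Total counts ranged between 45912044 and 60908470 per library. The 12 erythroid markers were detected and summed to 9542 to 11227 CPM (read counts scaled to a common library size by TMM) in PAX6_Ta KO, 8163 to 9253 CPM in PBX3_Cl KO and 5604 to 6493 CPM in Control. Of the 6 lymphoid markers, 4 lay under 1 CPM in every library and 1 had no count, and the 6 summed to 5.04 to 10.7 CPM over all libraries. The 6 myeloid markers summed to 6.10 to 19.7 CPM, with 3 under 1 CPM in every library. The 6 fibroblast markers summed to 23.0 to 23.1 CPM in PAX6_Ta KO, 3.22 to 3.23 CPM in PBX3_Cl KO and 49.0 to 133 CPM in Control, and 1 of them had no count. The 6 epithelial markers summed to 1081 to 1720 CPM in PAX6_Ta KO, 406 to 786 CPM in PBX3_Cl KO and 644 to 793 CPM in Control, with 2 at no count. The part of these marker differences in the results below was not tested, and in bulk RNA fewer cells of a type and less RNA per cell cannot be told apart.

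ATF4 binds, as a dimer with C/EBP proteins, a composite element whose core letters were searched here as TGATGNAA on both strands. The search covered RefSeq promoters of GRCh38.p14, from 250 bases before to 50 bases after each listed start. Of 35116 promoters of this length, 1270 (3.62%) held the letters. They were found at ASNS, CHAC1 and ATF3, and these windows are shown since ASNS and CHAC1 rose in both knockouts while ATF3 did not pass the test in either. Capitals mark the matched letters. At ASNS they start 68 bases before the start site and at ATF3 191 bases before it, both on the strand of the gene. At CHAC1 they lie 209 bases before the start site on the opposite strand, so the printed strand shows their reverse complement. The windows of 60 bases are chr7:97872443-97872502 (minus strand), chr15:40953236-40953295 (plus strand) and chr1:212565190-212565249 (plus strand).
ASNS: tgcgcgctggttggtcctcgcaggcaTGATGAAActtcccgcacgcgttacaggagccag
CHAC1: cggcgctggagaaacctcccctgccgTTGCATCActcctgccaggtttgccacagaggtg
ATF3: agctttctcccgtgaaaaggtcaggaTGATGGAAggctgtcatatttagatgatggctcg
ASNS and ATF3 each have a second listed promoter without these letters, and the listed promoters of ATF4, DDIT3, TRIB3, SESN2, PSAT1 and PHGDH did not hold them. SLC7A11 is named only. A match is a description of the sequence and not a measured binding site.

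The 10 genes were set against Control to ask whether targets of ATF4 differed in cells that had lost either element. Genes of serine synthesis, asparagine synthesis and glutathione breakdown were higher in both knockouts, while the mRNA of ATF4 and of the transcription factors DDIT3 and ATF3 did not pass the test. In PAX6_Ta KO against Control, 4 of 10 genes were called higher (CHAC1, ASNS, PSAT1 and PHGDH) and 0 lower by edgeR's quasi-likelihood test, at a Benjamini-Hochberg adjusted p under 0.05 over 20746 genes. Over all genes tested, 7.21% were called higher and 4.21% lower in that comparison. In PBX3_Cl KO against Control, 5 of 10 genes were called higher (the same 4 and SLC7A11) and 0 lower, against 6.28% higher and 2.69% lower over all genes. At an unadjusted p under 0.05, edgeR had 6 higher in PAX6_Ta KO and 7 in PBX3_Cl KO and 0 lower in both, and DESeq2 called 6 and 5 higher and 0 lower. With the replicate number as a block in the edgeR fit, TRIB3 and SESN2 were called higher as well in both knockouts. The shares of all genes given above hold for the main fit only. Under 14 alternatives described below, all genes called higher ranged between 927 and 2028 in PAX6_Ta KO and between 849 and 1922 in PBX3_Cl KO. No share of all genes was counted at an unadjusted p. The 10 genes had a median log2 fold change of 0.83 (PAX6_Ta KO) and 0.88 (PBX3_Cl KO), beside -0.02 and -0.01 for all genes tested, and 9 of 10 values lay above 0 in each. Both comparisons share the Control libraries, so they are not independent of each other. Since the genes were chosen with earlier results of these data known, their shares beside those of all genes are a description and not a test.

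**Figure D1:**
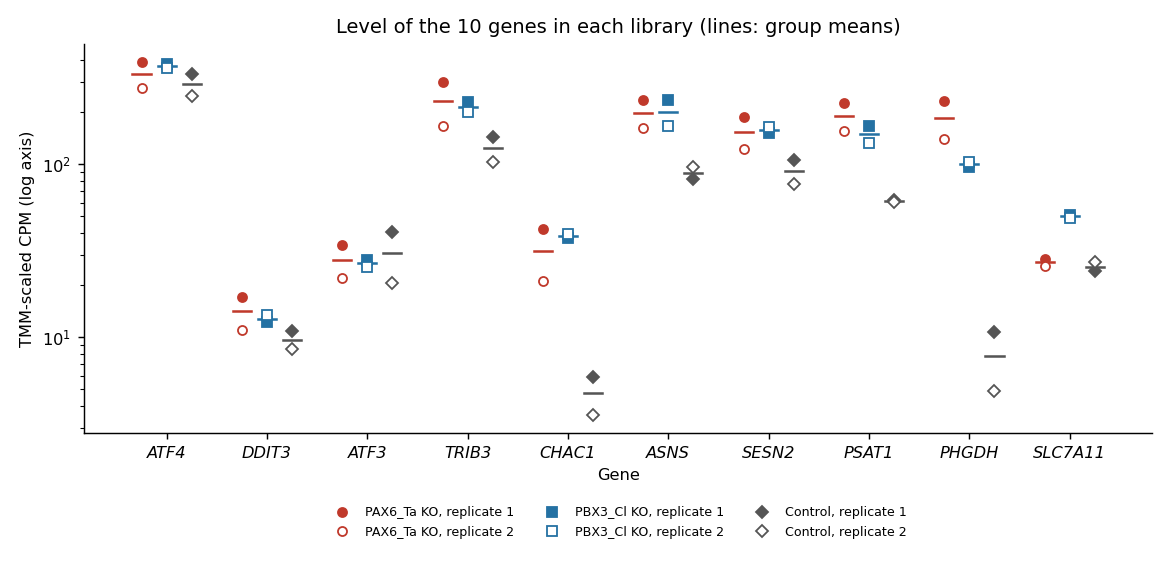
Level of each of the 10 genes in each library, in CPM scaled by TMM on a log axis, with PAX6_Ta KO as circles, PBX3_Cl KO as squares and Control as diamonds; filled symbols are replicate 1, open symbols replicate 2 and lines the group means. PHGDH lies between 96.9 and 232 CPM in the 4 knockout libraries and at 10.7 and 4.87 CPM in Control, whereas the groups overlap at ATF3.

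PHGDH, which catalyses the first and committed step of serine synthesis from 3-phosphoglycerate, had the largest difference of the 10 genes in both knockouts. It had 232 and 140.0 CPM in PAX6_Ta KO, against 10.7 and 4.87 CPM in Control (replicates 1 and 2; raw counts of 11159 and 7371, against 643 and 246). It had 96.9 and 103 CPM in PBX3_Cl KO (raw counts of 4273 and 4715). Every knockout library lay above both Control libraries, with the lowest of them far above the highest Control value. The log2 fold change was 4.57 ± 0.37 (SE, n = 2 libraries each; 23.8-fold; edgeR adjusted p = 7.3e-06) in PAX6_Ta KO and 3.68 ± 0.36 (12.8-fold; adjusted p = 3.2e-05) in PBX3_Cl KO. Ordered from the highest log2 fold change down, PHGDH was at place 273 of 20746 in PAX6_Ta KO and 329 in PBX3_Cl KO. The gene lies at chr1:120191034-120286841 (GRCh37, plus strand), and the 22 other protein-coding tested genes within 5 Mb had a median of 0.21 in PAX6_Ta KO and 0.01 in PBX3_Cl KO.

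PSAT1, the aminotransferase of the next step, had 225 and 157 CPM in PAX6_Ta KO and 166 and 132 CPM in PBX3_Cl KO, against 62.6 and 60.5 CPM in Control. Both Control libraries were close to each other and all 4 knockout libraries lay above them. PSAT1 was higher on the log2 scale by 1.63 ± 0.23 (SE; edgeR adjusted p = 4.6e-04) in PAX6_Ta KO and 1.28 ± 0.22 (adjusted p = 0.0029) in PBX3_Cl KO. PSAT1 is at chr9:80912041-80945009 (GRCh37, plus strand). Its processed pseudogenes had at most 12 counts in any library.

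ASNS, asparagine synthetase, had 234 and 163 CPM in PAX6_Ta KO and 235 and 167 CPM in PBX3_Cl KO, against 82.0 and 96.3 CPM in Control. In both knockouts replicate 1 was the higher library, and in Control replicate 2 was, but no knockout library reached down to Control. The log2 fold change was 1.16 ± 0.24 (SE; edgeR adjusted p = 0.0073) in PAX6_Ta KO and 1.17 ± 0.24 (adjusted p = 0.0082) in PBX3_Cl KO. ASNS is at chr7:97480989-97501854 (GRCh37, minus strand), on arm 7q, where 419 protein-coding genes had a median of -0.24 (PAX6_Ta KO) and 0.37 (PBX3_Cl KO). With that arm median taken out, the value in PBX3_Cl KO was 0.81 (adjusted p = 0.064) and no longer passed the threshold. The 104 neighbours within 5 Mb had a median of 0.40 there, and with it taken out ASNS stood at 0.77 (adjusted p = 0.069). The call was also lost without PAX6_Ta KO replicate 1 (0.87, adjusted p = 0.087 in PAX6_Ta KO) and without PBX3_Cl KO replicate 1 (0.87, adjusted p = 0.056 in PBX3_Cl KO). Counts of the pseudogene ASNSP1, which can share reads with ASNS, were 341 and 325 for PAX6_Ta KO, 181 and 145 for PBX3_Cl KO, and 65 and 46 for Control.

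CHAC1, a gamma-glutamylcyclotransferase that degrades glutathione, had 42.1 and 21.2 CPM in PAX6_Ta KO and 37.7 and 39.8 CPM in PBX3_Cl KO, against 5.93 and 3.54 CPM in Control. The knockout libraries did not overlap with Control, and the PAX6_Ta KO libraries were the more scattered. CHAC1 was higher on the log2 scale by 2.74 ± 0.33 (SE; edgeR adjusted p = 1.6e-04) in PAX6_Ta KO and 3.03 ± 0.34 (adjusted p = 1.0e-04) in PBX3_Cl KO. CHAC1 is at chr15:41245160-41248710 (GRCh37, plus strand), and its 100 neighbours within 5 Mb had medians of 0.00 and 0.11 in these comparisons.

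SLC7A11, the cystine importer of system xc-, was called in PBX3_Cl KO and not in PAX6_Ta KO. It had 28.3 and 25.9 CPM in PAX6_Ta KO, 51.0 and 49.3 CPM in PBX3_Cl KO, and 24.0 and 27.3 CPM in Control. Both PBX3_Cl KO libraries lay above the other 4, while PAX6_Ta KO overlapped with Control. The log2 fold change was 0.08 ± 0.19 (SE; edgeR adjusted p = 0.88; 95% interval -0.33 to 0.49) in PAX6_Ta KO and 0.97 ± 0.19 (adjusted p = 0.0060) in PBX3_Cl KO. Without Control replicate 1 the value in PBX3_Cl KO was 0.88 (adjusted p = 0.076). SLC7A11 is at chr4:139085251-139163503 (GRCh37, minus strand), on arm 4q, whose median was -0.49 for PAX6_Ta KO and -0.11 for PBX3_Cl KO. With the arm median taken out, SLC7A11 in PAX6_Ta KO stood at 0.57 (adjusted p = 0.090), and with the median of its neighbours within 5 Mb taken out at 0.63 (adjusted p = 0.052). Counts of the antisense gene SLC7A11-AS1 were 116 and 104 for PAX6_Ta KO, 118 and 192 for PBX3_Cl KO, and 109 and 96 for Control.

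**Figure D2:**
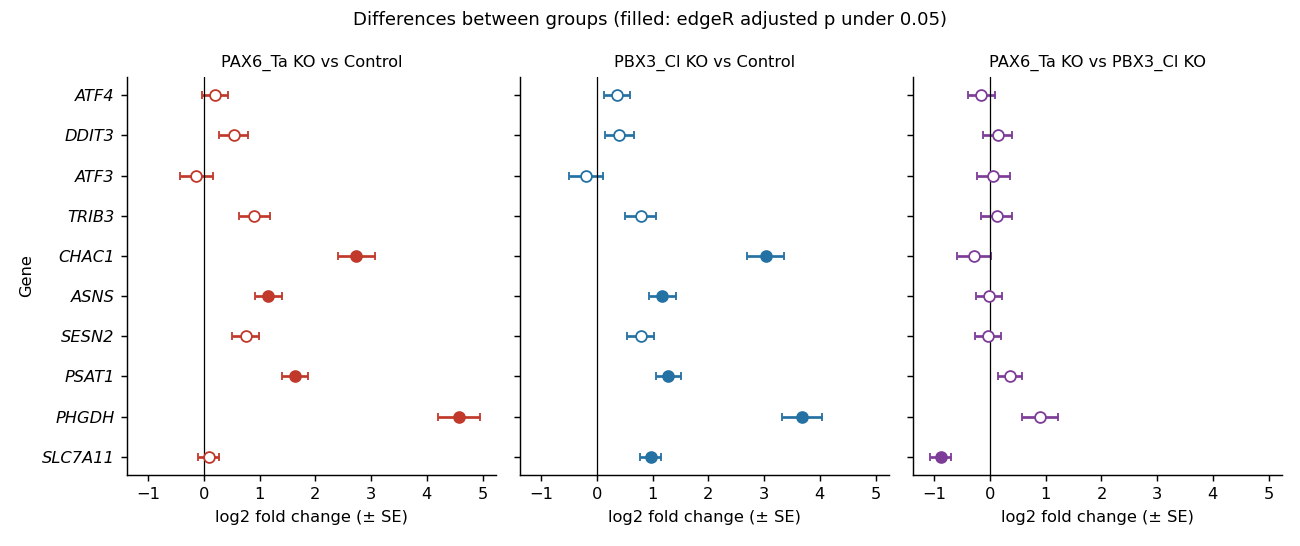
Log2 fold change of the 10 genes, with a panel for each knockout set against Control and a panel for PAX6_Ta KO over PBX3_Cl KO; bars are standard errors and filled points have an edgeR adjusted p under 0.05. PHGDH reaches 4.57 and 3.68 in the knockouts, and between the knockouts SLC7A11 at -0.89 is the filled point.

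TRIB3 and SESN2 lay near the threshold. TRIB3, a pseudokinase that restrains ATF4 and AKT signalling, had 298 and 166 CPM in PAX6_Ta KO and 229 and 200.1 CPM in PBX3_Cl KO, against 145 and 104 CPM in Control. All knockout libraries lay above Control, at a log2 fold change of 0.90 ± 0.27 (SE; edgeR adjusted p = 0.054) in PAX6_Ta KO and 0.79 ± 0.27 (adjusted p = 0.11) in PBX3_Cl KO. With the replicate number as a block, TRIB3 passed in both, at 0.87 (adjusted p = 0.0093) and 0.81 (adjusted p = 0.016). Of 15 alternatives, 9 left TRIB3 short of the threshold in PAX6_Ta KO and 10 in PBX3_Cl KO, and in the rest it passed. Without PAX6_Ta KO replicate 1 it stood at 0.42 (adjusted p = 0.67) in PAX6_Ta KO, and without Control replicate 2 at 0.56 (adjusted p = 0.52) in PBX3_Cl KO. SESN2, a leucine-sensing inhibitor of mTORC1, had 187 and 122 CPM in PAX6_Ta KO and 153 and 164 CPM in PBX3_Cl KO, against 107 and 76.7 CPM in Control. Here too the groups did not overlap, at 0.75 ± 0.24 (adjusted p = 0.069) in PAX6_Ta KO and 0.79 ± 0.24 (adjusted p = 0.067) in PBX3_Cl KO. With the block, SESN2 passed in both, at 0.74 (adjusted p = 0.025) and 0.82 (adjusted p = 0.021). Of 15 alternatives, 8 left SESN2 short of the threshold in PAX6_Ta KO and 10 in PBX3_Cl KO, and in the rest it passed. With the same libraries left out it stood at 0.41 (adjusted p = 0.67) and 0.56 (adjusted p = 0.48). SESN2 lies on arm 1p, whose median was -0.31 in PAX6_Ta KO, and with that median taken out the value there was 1.07 (adjusted p = 0.014).

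The 3 transcription factors did not pass the test in either knockout. ATF4 had 393 and 275 CPM in PAX6_Ta KO and 380.2 and 362 CPM in PBX3_Cl KO, against 332 and 249 CPM in Control. PAX6_Ta KO overlapped with Control, whereas both PBX3_Cl KO libraries lay above it. The log2 fold change was 0.20 ± 0.24 (SE; edgeR adjusted p = 0.72; 95% interval -0.31 to 0.71) in PAX6_Ta KO and 0.35 ± 0.24 (adjusted p = 0.49; interval -0.16 to 0.87) in PBX3_Cl KO. Its processed pseudogene ATF4P3 had 372 to 518 counts in PAX6_Ta KO, 179 to 423 counts in PBX3_Cl KO and 282 to 422 counts in Control, beside 12571 or more for ATF4.

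DDIT3, the pro-apoptotic factor CHOP, had 17.1 and 11.1 CPM in PAX6_Ta KO and 12.2 and 13.4 CPM in PBX3_Cl KO, against 10.8 and 8.57 CPM in Control. The knockout libraries were all above Control, though by less than the scatter within PAX6_Ta KO. Its log2 fold change was 0.54 ± 0.26 (SE; edgeR adjusted p = 0.25; 95% interval -0.03 to 1.10) in PAX6_Ta KO and 0.40 ± 0.26 (adjusted p = 0.47; interval -0.16 to 0.97) in PBX3_Cl KO. DDIT3 overlaps MARS1, a methionyl-tRNA synthetase gene on the opposite strand with 17108 to 24920 counts per library, and reads of the overlap may be shared, as no source used here states whether the counting used strand.

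ATF3, an early stress-induced factor of the same bZIP family, had 34.1 and 22.0 CPM in PAX6_Ta KO and 28.1 and 25.6 CPM in PBX3_Cl KO, against 40.8 and 20.7 CPM in Control. The Control libraries spanned all 4 knockout libraries. Its log2 fold change was -0.14 ± 0.30 (SE; edgeR adjusted p = 0.88; 95% interval -0.79 to 0.52) in PAX6_Ta KO and -0.20 ± 0.30 (adjusted p = 0.82; interval -0.85 to 0.46) in PBX3_Cl KO.

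The 10 genes also varied together between libraries of 1 group. In PAX6_Ta KO all 10 were higher in replicate 1 than in replicate 2, with a median log2 ratio of 0.61, beside 51.3% of all tested genes and a median of 0.01. In Control 8 of 10 were higher in replicate 1 (median 0.45, against 48.9% of all genes), with ASNS and SLC7A11 the exceptions. In PBX3_Cl KO 6 of 10 were (median 0.06, against 49.3%). Across all genes tested, replicate 1 minus replicate 2 correlated at 0.49 between PAX6_Ta KO and Control. The correlation was 0.47 between the knockouts and 0.26 between PBX3_Cl KO and Control. Part of the spread between replicates thus followed the replicate number across groups. The main fit counts that part in the error of each fold change above. The fit with the replicate block takes it out, and there TRIB3 and SESN2 passed in both knockouts. Whether the replicates are separate cultures is not stated, and every p-value here rests on the spread between these 6 libraries alone.

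The levels of the 10 genes were ordered per transcript length, in RPKM, the CPM divided by the length of the canonical transcript in kilobases. ATF4 had the highest level in every group, at 235 ± 58.6 RPKM in PAX6_Ta KO, 262 ± 8.91 RPKM in PBX3_Cl KO and 205 ± 41.6 RPKM in Control (SD, n = 2), and did not overlap with the next gene. SLC7A11 was the lowest, at 2.81 ± 0.175 RPKM in PAX6_Ta KO, 5.20 ± 0.131 RPKM in PBX3_Cl KO and 2.66 ± 0.237 RPKM in Control. Its place rests on its canonical transcript, the longest of the 10 at 9645 bases, and in CPM DDIT3 lay below it in every group. PHGDH changed place most. It was at place 2 in PAX6_Ta KO with 99.8 ± 35.0 RPKM and place 5 in PBX3_Cl KO with 53.6 ± 2.28 RPKM, against place 8 in Control with 4.18 ± 2.21 RPKM. In PAX6_Ta KO the libraries of PHGDH, TRIB3, PSAT1 and ASNS overlapped from each gene to the next, so their order is not resolved there. In Control, PHGDH overlapped with CHAC1 (3.12 ± 1.11 RPKM), and CHAC1 with SLC7A11.

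**Figure D3:**
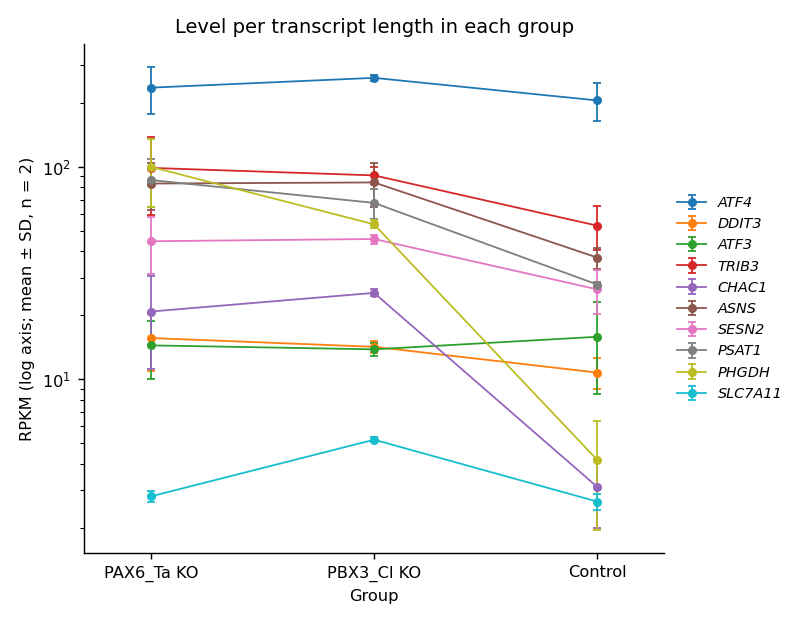
Level of each gene per transcript length (RPKM, log axis) in PAX6_Ta KO, PBX3_Cl KO and Control; points are means of 2 libraries, bars the SD, and lines join the points of 1 gene. PHGDH stands at 99.8 and 53.6 RPKM in the knockouts and at 4.18 RPKM in Control, while ATF4 is highest in all 3 groups.

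The knockouts were then compared with each other. In PAX6_Ta KO against PBX3_Cl KO, 0 of 10 genes were called higher and 1, SLC7A11, lower, beside 5.26% of all genes called higher and 6.71% lower. At an unadjusted p under 0.05, 1 gene (PHGDH) was higher and 1 lower, and DESeq2 called 0 higher and 1 lower. SLC7A11 differed by -0.89 ± 0.19 on the log2 scale (SE; edgeR adjusted p = 0.0085; 95% interval -1.30 to -0.47). The call did not hold without PAX6_Ta KO replicate 1 (-0.96, adjusted p = 0.061) or replicate 2 (-0.82, adjusted p = 0.13). It did not hold either with the 4q median taken out (-0.51, adjusted p = 0.13) or with that of its neighbours within 5 Mb (-0.33, adjusted p = 0.32), and held in 11 of 15 alternatives. PHGDH was higher in both PAX6_Ta KO libraries (232 and 140.0 CPM) than in those of PBX3_Cl KO (96.9 and 103 CPM), at 0.90 ± 0.32 (adjusted p = 0.097; interval 0.20 to 1.60). It passed the threshold in 6 of 15 alternatives, among them with the groups compared fitted alone (0.95, adjusted p = 0.014). For the other 8 genes the libraries of the knockouts overlapped. Their differences lay between -0.29 (CHAC1, interval -0.96 to 0.38) and 0.36 (PSAT1, interval -0.12 to 0.84), and none of the 8 passed the threshold.

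The rest of the pathway was read from 9 lists with 126 genes tested, 17 of which were called higher and 3 lower in PAX6_Ta KO, and 14 higher and 0 lower in PBX3_Cl KO. Of all genes tested, 7.21% were higher and 4.21% lower in PAX6_Ta KO, and 6.28% and 2.69% in PBX3_Cl KO. The counts of each list against Control are to be read beside these shares, and a list with 1 or 2 genes called is not read as differing from them. Under 14 alternatives, all genes called in PAX6_Ta KO ranged between 927 and 2028 higher and 427 and 1520 lower. In PBX3_Cl KO they ranged between 849 and 1922 higher and 420 and 876 lower. List counts with the replicate block, with DESeq2 or at an unadjusted p therefore have no fixed share beside them here. The lists too were chosen with earlier results of these data known. Upstream, the list of eIF2alpha kinases, phosphatase subunits and eIF2B held 20 genes, of which 0 were higher and 2 lower in PAX6_Ta KO, and 1 higher and 0 lower in PBX3_Cl KO. Its medians were 0.03 and -0.04. With the replicate block 1 was higher and 6 lower in PAX6_Ta KO, and at an unadjusted p under 0.05, 1 and 6 there and 1 and 1 in PBX3_Cl KO. EIF2AK3 (PERK), the kinase of the endoplasmic reticulum, had 5.50 and 6.08 CPM in PAX6_Ta KO and 11.3 and 10.9 CPM in PBX3_Cl KO, against 11.8 and 11.4 CPM in Control. It fell by 1.00 on the log2 scale in PAX6_Ta KO (edgeR adjusted p = 0.014) and stood at -0.06 (adjusted p = 0.94) in PBX3_Cl KO. EIF2AK2 (PKR), which binds double-stranded RNA, had 22.1 and 20.6 CPM in PAX6_Ta KO and 36.3 and 30.3 CPM in PBX3_Cl KO, against 35.1 and 35.3 CPM in Control, and fell by 0.72 in PAX6_Ta KO (adjusted p = 0.031). Both lie on arm 2p, whose median was -0.49 in PAX6_Ta KO. With it taken out, EIF2AK3 stood at -0.51 (adjusted p = 0.26) and EIF2AK2 at -0.23 (adjusted p = 0.65), and both calls were also lost without any 1 of the PAX6_Ta KO or Control libraries.

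EIF2AK1 (HRI), the heme-regulated kinase of erythroid cells, had 462 and 352 CPM in PAX6_Ta KO and 496 and 404 CPM in PBX3_Cl KO, against 273 and 198 CPM in Control. No knockout library overlapped with Control, at 0.79 ± 0.24 (SE; edgeR adjusted p = 0.053; with the replicate block adjusted p = 0.0042) in PAX6_Ta KO and 0.94 ± 0.24 (adjusted p = 0.029) in PBX3_Cl KO. It lies on arm 7p, with medians of 0.65 (PAX6_Ta KO) and 0.58 (PBX3_Cl KO), and with it taken out the values were 0.14 (adjusted p = 0.85) and 0.35 (adjusted p = 0.53). The call in PBX3_Cl KO was also lost without PBX3_Cl KO replicate 1 or Control replicate 2. EIF2AK4 (GCN2), which senses uncharged tRNA, stood at 0.10 (adjusted p = 0.86) in PAX6_Ta KO and 0.30 (adjusted p = 0.46) in PBX3_Cl KO.

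The list of 12 further enzymes of serine, proline and one-carbon metabolism also holds the aminotransferases GPT2, GOT1 and BCAT1, which lie outside these pathways. Of the 12, 4 were higher and 0 lower in PAX6_Ta KO (median 0.28), and 3 higher and 0 lower in PBX3_Cl KO (median 0.30). The replicate block called 5 higher and 1 lower in PAX6_Ta KO and 5 higher in PBX3_Cl KO. With arm medians taken out 2 were higher in each, ALDH1L2 and GPT2. ALDH1L2, a mitochondrial formyltetrahydrofolate dehydrogenase, had 31.0 and 20.7 CPM in PAX6_Ta KO and 58.6 and 62.7 CPM in PBX3_Cl KO, against 3.50 and 2.46 CPM in Control. The groups were far apart, at 3.11 (edgeR adjusted p = 1.0e-05) in PAX6_Ta KO and 4.34 (adjusted p = 1.5e-06) in PBX3_Cl KO. Between the knockouts it differed by -1.23 (adjusted p = 0.0051, but 0.069 without PAX6_Ta KO replicate 2). GPT2, the mitochondrial alanine aminotransferase, had 25.2 and 15.2 CPM in PAX6_Ta KO and 33.4 and 34.8 CPM in PBX3_Cl KO, against 9.34 and 7.70 CPM in Control. It was higher by 1.24 (adjusted p = 0.0063, lost without PAX6_Ta KO replicate 1) and 2.00 (adjusted p = 3.0e-04). PSPH, the phosphatase that completes serine synthesis after PHGDH and PSAT1, had 50.4 and 38.4 CPM in PAX6_Ta KO and 39.9 and 32.1 CPM in PBX3_Cl KO, against 18.2 and 17.3 CPM in Control. It was higher by 1.32 (adjusted p = 0.0013) and 1.02 (adjusted p = 0.0089). PSPH also lies on arm 7p, and with the arm medians taken out it stood at 0.67 (adjusted p = 0.072) and 0.43 (adjusted p = 0.32). MTHFD1L, a mitochondrial enzyme of the folate cycle, was higher by 0.76 in PAX6_Ta KO (adjusted p = 0.029), a call lost without either PAX6_Ta KO library, without Control replicate 1 or with the 6q median taken out (0.64, adjusted p = 0.078), and stood at 0.11 (adjusted p = 0.85) in PBX3_Cl KO.

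Of 11 amino acid transporters tested, 1 was higher in PAX6_Ta KO (median 0.38, 9 above 0) and 0 in PBX3_Cl KO (median 0.53, 11 above 0), where the replicate block called 3 higher, DESeq2 2, and 5 had an unadjusted p under 0.05. None was lower in either knockout, also at an unadjusted p under 0.05. SLC38A2, a sodium-coupled neutral amino acid transporter, had 373 and 364 CPM in PAX6_Ta KO and 339 and 242 CPM in PBX3_Cl KO, against 209.9 and 216 CPM in Control. It was higher by 0.79 in PAX6_Ta KO (edgeR adjusted p = 0.034), a call lost without any 1 of the PAX6_Ta KO or Control libraries, and stood at 0.45 (adjusted p = 0.28) in PBX3_Cl KO.

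Among tRNA synthetase and tRNA export genes known as ATF4 targets, 3 of 13 were higher and 0 lower in each knockout (medians 0.29 in PAX6_Ta KO and 0.23 in PBX3_Cl KO). Of the 8 other cytosolic tRNA synthetases, 0 were called in either direction by edgeR or DESeq2, or at an unadjusted p under 0.05 (medians -0.05 and 0.09). WARS1, for tryptophan, had 368 and 273 CPM in PAX6_Ta KO and 199 and 169 CPM in PBX3_Cl KO, against 94.4 and 119.8 CPM in Control. It was higher by 1.58 (edgeR adjusted p = 5.9e-04) and 0.78 (adjusted p = 0.049), and the second call was lost under 7 of the alternatives, among them without PBX3_Cl KO replicate 1 and without either Control library. GARS1, for glycine, stood at 1.14 (adjusted p = 0.0049) and 1.22 (adjusted p = 0.0038), and CARS1, for cysteine, at 0.97 (adjusted p = 0.0091) and 1.29 (adjusted p = 0.0018). GARS1 lies on arm 7p and CARS1 on arm 11p, whose medians were 0.62 in PAX6_Ta KO and 0.64 in PBX3_Cl KO. With the arm medians taken out none of these 4 values of GARS1 and CARS1 passed (0.35 to 0.65), so that 1 gene of the list, WARS1, was then called in each knockout.

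The list of other genes induced by ATF4 or CHOP held 19 tested genes, of which 7 were higher and 0 lower in PAX6_Ta KO (median 0.40), and 5 higher and 0 lower in PBX3_Cl KO (median 0.34), with the same counts when arm medians were taken out. STC2, a secreted glycoprotein of the stress response, had 40.7 and 27.1 CPM in PAX6_Ta KO and 40.9 and 40.8 CPM in PBX3_Cl KO, against 1.38 and 1.49 CPM in Control. It was higher by 4.56 (edgeR adjusted p = 5.9e-07) and 4.83 (adjusted p = 6.9e-07). GDF15, a stress-induced cytokine, had 259 and 201 CPM in PAX6_Ta KO and 159 and 133 CPM in PBX3_Cl KO, against 48.2 and 22.2 CPM in Control. Its log2 fold changes were 2.71 (adjusted p = 1.3e-04) and 2.05 (adjusted p = 0.0011). DDIT4 (REDD1), an inhibitor of mTORC1, had 107 and 64.6 CPM in PAX6_Ta KO and 79.1 and 74.8 CPM in PBX3_Cl KO, against 39.6 and 22.5 CPM in Control, at 1.47 (adjusted p = 0.0052) and 1.31 (adjusted p = 0.013). The call in PBX3_Cl KO was lost without PBX3_Cl KO replicate 1 or Control replicate 2 (adjusted p up to 0.061). ATF5, a bZIP factor that is itself translated under stress, had 41.4 and 42.7 CPM in PAX6_Ta KO, against 14.5 and 15.1 CPM in Control, at 1.50 (adjusted p = 0.014). In PBX3_Cl KO its libraries were far apart, at 15.4 and 42.2 CPM, and the value of 0.96 did not pass (adjusted p = 0.13). JDP2, a repressor of the AP-1 family, was counted 571 and 349 times in PAX6_Ta KO, 43 and 62 times in PBX3_Cl KO, and 0 and 1 times in Control. The ratio of the summed counts to Control, scaled for library size, was 1010.1 in PAX6_Ta KO (exact 95% interval 181 to 39938) and 129 in PBX3_Cl KO (22.7 to 5148), and these intervals cover counting error only.

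**Figure D4:**
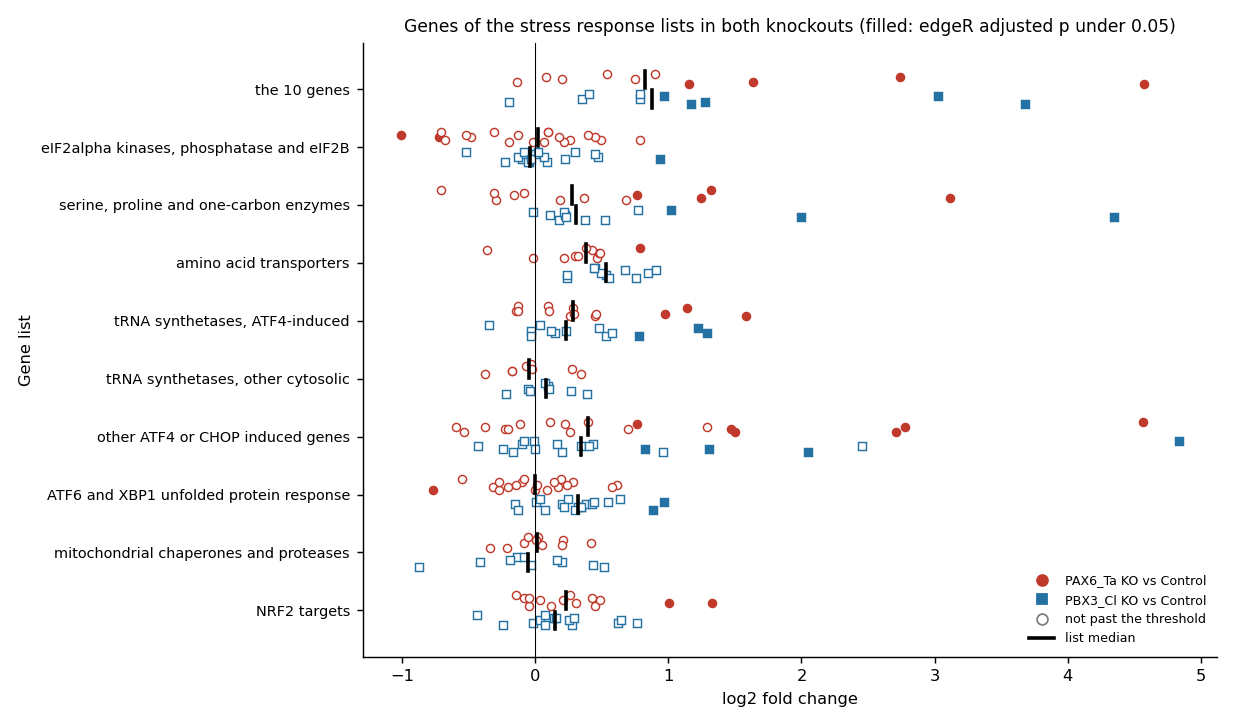
Log2 fold change of every tested gene of the 10 genes and the 9 pathway lists in PAX6_Ta KO against Control (circles) and PBX3_Cl KO against Control (squares); filled symbols have an edgeR adjusted p under 0.05 and black lines are list medians. JDP2 is not drawn, since it had 1 count in Control. Filled points lie above 0 in the 10 genes and in the other ATF4 or CHOP induced genes, where STC2 reaches 4.56 and 4.83, and the other cytosolic tRNA synthetases and the mitochondrial list have none.

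Neighbouring stress programmes were read in the same way. Of 19 genes of the ATF6 and XBP1 unfolded protein response, the endoplasmic reticulum arm that does not pass through eIF2alpha, 0 were higher and 1 lower in PAX6_Ta KO (median 0.00), and 2 higher and 0 lower in PBX3_Cl KO (median 0.32, 17 above 0). HERPUD1, of protein degradation at the endoplasmic reticulum, was higher by 0.97 in PBX3_Cl KO (edgeR adjusted p = 0.018, lost without PBX3_Cl KO replicate 1 or Control replicate 2), and stood at 0.29 (adjusted p = 0.54) in PAX6_Ta KO. The sensor ATF6 was higher by 0.88 in PBX3_Cl KO (adjusted p = 0.029, lost without the same libraries and with the 1q median taken out) and stood at 0.00 in PAX6_Ta KO. SDF2L1, of the endoplasmic reticulum chaperone complex, fell by 0.76 in PAX6_Ta KO (adjusted p = 0.030, lost without any 1 of the PAX6_Ta KO or Control libraries) and stood at -0.13 (adjusted p = 0.82) in PBX3_Cl KO. With the replicate block, and likewise at an unadjusted p under 0.05, 2 of the list were higher and 2 lower in PAX6_Ta KO. In PBX3_Cl KO the block had 2 higher and 0 lower, and 4 were higher and 0 lower at an unadjusted p under 0.05. Of 10 mitochondrial chaperones and proteases, 0 were called in either knockout by edgeR or DESeq2 (medians 0.02 and -0.06), and at an unadjusted p under 0.05, 1 was higher in PAX6_Ta KO, and 1 higher and 2 lower in PBX3_Cl KO. Of 14 targets of NRF2, the factor of the oxidative stress response, 2 were higher in PAX6_Ta KO (median 0.24) and 0 in PBX3_Cl KO (median 0.15), where the block called 2, DESeq2 1, and 3 had an unadjusted p under 0.05, and none was lower. ME1, malic enzyme, was higher by 1.33 in PAX6_Ta KO (adjusted p = 0.0036). TALDO1, of the pentose phosphate pathway, was higher by 1.00 there (adjusted p = 0.011), and lies on arm 11p, without whose median it stood at 0.38 (adjusted p = 0.42).

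Between the knockouts, 4 of the 126 pathway genes were called higher in PAX6_Ta KO (WARS1, JDP2, VLDLR and GCLM) and 8 lower (EIF2AK3, ALDH1L2, CTH, SLC38A1, EIF4EBP1, ATF6, PDIA4 and CLPP), shares to be read against the 5.26% higher and 6.71% lower of all genes. VLDLR, GCLM, CTH, SLC38A1, EIF4EBP1, PDIA4 and CLPP are named after their values were seen. CTH, which makes cysteine from cystathionine, differed by -1.48 (edgeR adjusted p = 0.0020) and was called under all 14 alternatives run for it. VLDLR, a lipoprotein receptor with 10 to 39 counts per library, was called under 5 of 13. With arm medians taken out, 2 genes were higher and 3 lower, and WARS1 stood at 0.50 (adjusted p = 0.22).

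The composite element was also counted over all tested genes with a listed promoter. Of 350 whose promoters held TGATGNAA, 16.0% were called higher in PAX6_Ta KO and 13.4% in PBX3_Cl KO, beside 8.40% and 7.41% of the 11879 genes with a promoter. Called lower were 7.71% of the 350 in PAX6_Ta KO and 2.86% in PBX3_Cl KO, beside 4.93% and 3.02%, so in PAX6_Ta KO the share called was the higher one in both directions. The medians of the 350 genes were 0.03 and 0.06, beside -0.02 and 0.03, and most genes with these letters were not called. Genes with several listed promoters have more chances of a match, and their part in these shares was not tested.

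Each value of the 10 genes was recomputed under 15 alternatives, and those of the pathway lists under 14 or fewer. CHAC1, PSAT1 and PHGDH were called higher in both knockouts under all 15. PHGDH ranged between 4.11 and 5.26 in PAX6_Ta KO and between 3.22 and 4.36 in PBX3_Cl KO, and CHAC1 between 2.16 and 3.16 and between 2.70 and 3.45. PSAT1 ranged between 1.34 and 1.88 and between 1.06 and 1.45.

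**Figure D5:**
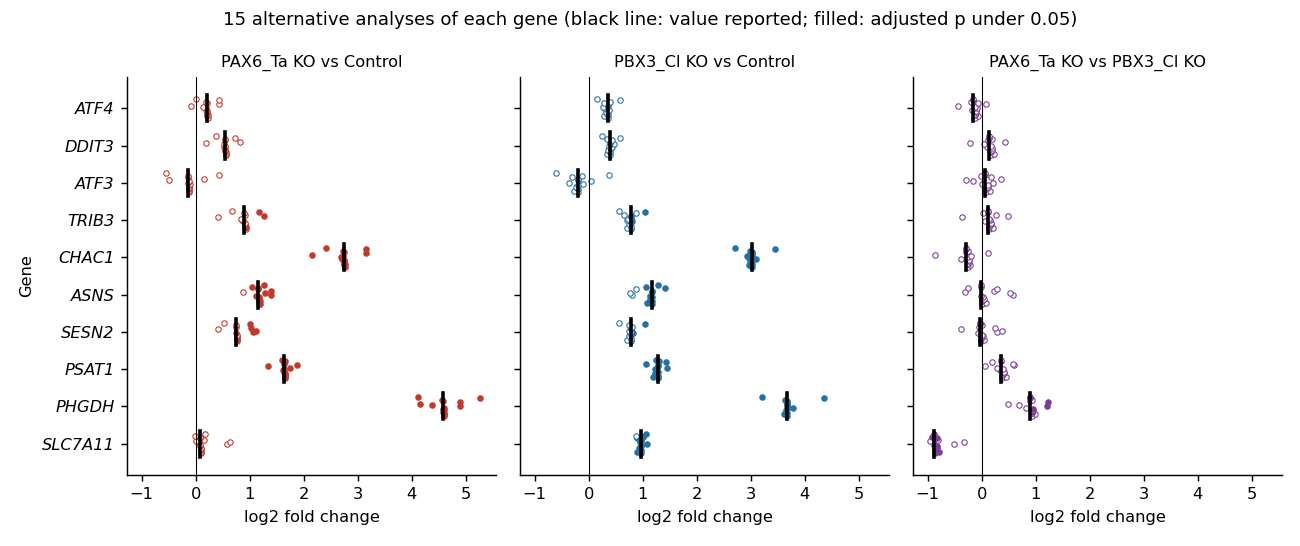
Log2 fold change of each gene under 15 alternative analyses (points, spread vertically for visibility; filled where the adjusted p is under 0.05) beside the value reported (black line), with a panel for each knockout set against Control and a panel for the knockouts set against each other. CHAC1, PSAT1 and PHGDH are filled throughout against Control, and ATF4, DDIT3 and ATF3 in none.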

How the data were processed

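Libraries were made from total RNA by a stranded method and read on an Illumina NovaSeq instrument. Per the methods and labels, reads were cleaned of adaptors (Cutadapt, version 3.4) and aligned and counted per gene by STAR (GRCh37, release 75), and the deposited values are raw counts. The version of STAR and its strand setting are not stated in the sources used. Of the count columns, 4 of single samples match no label and were left out, as were tables of the authors' own DESeq2 comparisons (fold changes and p-values).

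The test was the quasi-likelihood F-test of edgeR (version 4.0.16, R version 4.3.3) on 20746 of 52088 genes kept by filterByExpr (17198 had no count), with TMM scaling, all 6 libraries in 1 fit and Benjamini-Hochberg adjustment over all genes at a threshold of 0.05. The script was tested on simulated counts. No replicate pair was a copy (chi-square per degree of freedom of 38.8 in PAX6_Ta KO, 121 in PBX3_Cl KO and 47.1 in Control). Replicate 1 minus replicate 2 correlated across genes at 0.47 (PAX6_Ta KO with PBX3_Cl KO), 0.49 (PAX6_Ta KO with Control) and 0.26 (PBX3_Cl KO with Control), so the numbers were taken to pair libraries. The main fit left this pairing out, and the alternative with the replicate block took it in. Positions and arms are those of GENCODE 44 lifted to GRCh37 (49922 entries matched by symbol, 1596 by identifier). Alternatives were other scalings, DESeq2 (version 1.42.0), other filters, the 2 groups alone, the block, arm or neighbourhood medians taken out (the last added after seeing the data), and each library left out. The text names all 10 genes, the eIF2alpha kinases, and of each list up to 5 genes called against Control with the smallest adjusted p. The genes and lists were chosen with earlier results of these data known.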

Additional observations from a re-analysis of the deposited data

Results flagged for a closer look

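SLC7A11 differed between the knockouts. Set against Control it stood at 0.08 in PAX6_Ta KO and 0.97 in PBX3_Cl KO on the log2 scale, and the difference between them was -0.89 (edgeR adjusted p = 0.0085), with both PAX6_Ta KO libraries (28.3 and 25.9 CPM) below both PBX3_Cl KO libraries (51.0 and 49.3 CPM). The 16 protein-coding neighbours within 5 Mb had a median of -0.54 in the same comparison, and with it taken out the difference was -0.33 (adjusted p = 0.32).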

How the results depend on the processing

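Of 450 values of the 10 genes over all alternatives, 381 kept direction and side of the threshold, 29 gained a call, 9 lost one and 31 changed sign, none of them past the threshold. In PAX6_Ta KO against PBX3_Cl KO, ASNS stood at 0.0035 with RLE factors and with DESeq2, 0.082 with upper-quartile factors, 0.012 with no filter, 0.036 with at least 1 CPM in 2 libraries, 0.032 with the groups alone, 0.59 with arm and 0.52 with neighbourhood medians out. SESN2 stood there at 0.050 with upper-quartile factors, 0.014 with at least 1 CPM in 2 libraries and with the groups alone, 0.28 with arm and 0.38 with neighbourhood medians out, and ATF3 at -0.17 with neighbourhood medians out (0.050 in PBX3_Cl KO against Control).

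Pathway-list genes called lower in PAX6_Ta KO against Control (3) were 5 with the groups alone, 1 with arm medians out and 10 with the replicate block. Those called higher in PBX3_Cl KO against Control (14) were 9 with arm medians out and 22 with the block, and 1 was lower with no filter. Between the knockouts, PHGDH was the 1 gene called higher with no filter, with the groups alone and with arm medians out, and 0 genes were lower with arm or neighbourhood medians out. Pathway genes called there (4 higher, 8 lower) were 7 higher with no filter, 5 lower with the groups alone, 2 higher and 3 lower with arm medians out, and 16 lower with the block. The block changed the calls of TRIB3 and SESN2 against Control and of no other of the 10 genes. The number called over all genes moved under the alternatives too. Between the knockouts it ranged between 662 and 1672 higher and 606 and 2205 lower.

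With 1 library left out in turn, pathway genes ranged between 10 and 21 higher and 0 and 7 lower in PAX6_Ta KO, and between 8 and 20 higher and 0 and 1 lower in PBX3_Cl KO, against Control. Between the knockouts they ranged between 1 and 7 higher and 1 and 15 lower, and the 10 genes between 0 and 1 in either direction. PAX6_Ta KO against Control ranged between -0.085 and 0.44 for ATF4, -0.55 and 0.44 for ATF3, and -0.0069 and 0.17 for SLC7A11, and PBX3_Cl KO against Control between -0.61 and 0.38 for ATF3. PAX6_Ta KO against PBX3_Cl KO ranged between -0.44 and 0.086 for ATF4, -0.22 and 0.42 for DDIT3, -0.30 and 0.35 for ATF3, -0.37 and 0.48 for TRIB3, -0.87 and 0.12 for CHAC1, -0.31 and 0.29 for ASNS, and -0.38 and 0.24 for SESN2. The causes were not tested. With 2 libraries per group, differences of the size of TRIB3 and SESN2 lie at the limit of what the spread resolves in the fit without the block. When a library is left out, its group has 1, which is assumed to vary like the others. Genes under a few CPM are limited by counting as well.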
